A study of Trachemys scripta elegans with 3 samples.

Results

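The iron-handling genes of the red-eared slider liver were taken from an RNA-seq table of 205118 unigenes, the transcript clusters of a de novo assembly. A unigene was included when its best match in the NR protein database was a turtle or alligator protein named as hepcidin, transferrin, ferritin, ceruloplasmin, haptoglobin, hemopexin, hemojuvelin, solute carrier family 40 or heme oxygenase. This gave 22 unigenes. Unigene c108319_g2 was included for its hepcidin domain in the Pfam database, and 3 more turtle-matched unigenes for the KEGG gene name TF (transferrin) or HP (haptoglobin), which makes 26 unigenes in all. A unigene of pyruvate dehydrogenase kinase, which holds the letters of transferrin only inside the word transferring, was left out of the 27 that these letters select. The group was chosen by the FPKM of c108319_g2, TF and HP across the salinities, which were known when the rule was written, so these values describe the libraries and are not tested.

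The turtles were 2-year-old Trachemys scripta elegans of no stated genotype, kept for 30 days in freshwater (0 psu, practical salinity units), in 5 psu saltwater or in 15 psu saltwater, then fasted and chilled for anesthesia. Each salinity was represented by 1 library, made from the mixed livers of 3 turtles, so the 9 turtles gave 3 libraries. There were thus no replicate libraries, values carry no error, and no difference between libraries could be set against the spread between turtles. The paper also ran qRT-PCR on separate liver sections, with errors and tests. Its genes included serum amyloid A, COQ10 and TAT, named below, but none of the iron-handling unigenes, and its values were not used here. Levels are FPKM, fragments per kilobase of unigene scaled to library size, and log2 fold changes are those of FPKM + 0.1. A unigene was counted as changed when it differed 2-fold or more and reached an FPKM of 1 in either library of the comparison, without any test.

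Hepcidin is a peptide hormone of the liver that, in mammals, binds the iron exporter ferroportin (SLC40A1) on the cell surface and has it degraded, which holds iron inside cells. In mammals its transcription is driven by iron through bone morphogenetic proteins, hemojuvelin (HJV), transferrin receptor 2 (TFR2) and SMAD proteins, and by inflammation through interleukin 6 and STAT3. The liver also makes transferrin, which carries iron in plasma, and ferritin, the hollow protein shell in which iron is stored. Ceruloplasmin (CP) oxidizes iron leaving cells, haptoglobin binds free hemoglobin, hemopexin (HPX) binds free heme, and the heme oxygenases break heme down and release its iron.

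The unigene c108319_g2 had an FPKM of 2.79 in freshwater, 23.7 in 5 psu water and 379 in 15 psu water. It was thus low in freshwater, higher at 5 psu and higher again at 15 psu. The FPKM ratio was 8.51 for 5 psu over 0 psu, 136 for 15 psu over 0 psu and 15.96 for 15 psu over 5 psu, with log2 fold changes of 3.04, 7.03 and 3.99. Its rank by FPKM among all unigenes was 34610 in freshwater, 3887 in 5 psu water and 238 in 15 psu water. Among the 5675 unigenes with a turtle or alligator NR match, FPKM above 0 in all 3 libraries and FPKM of at least 10 in at least 1 library, its log2 fold change ranked 1 for 15 psu over 0 psu, where the next value was 6.33. That value was of c109971_g1, with FPKM of 0.08 in freshwater and 14.4 in 15 psu water. At so low a freshwater level it depends on the pseudocount of 0.1, and so does the order of the pair. Unigene c108319_g2 ranked 36 for 5 psu over 0 psu and 14 for 15 psu over 5 psu. A 2-fold higher FPKM at both steps, 5 psu over 0 psu and 15 psu over 5 psu, was found for 13 of these 5675 unigenes (0.229%), and c108319_g2 was the only one of the 14 iron-handling unigenes among them to show it. The choice of the group used its FPKM, and c108319_g2 reached an FPKM of 10 through the saltwater libraries alone. Its ranks and this share therefore describe it and test nothing.

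The second unigene with a hepcidin domain, c105111_g1, was also named hepcidin by its NR match to Chrysemys picta bellii and did not share this pattern. Its FPKM was 580 in freshwater, 370 in 5 psu water and 392 in 15 psu water, with log2 fold changes of -0.65 for 5 psu over 0 psu, -0.57 for 15 psu over 0 psu and 0.08 for 15 psu over 5 psu. It was highest in freshwater, and both saltwater libraries were within 2-fold of it. No other unigene of the table carried the hepcidin domain. The FPKM of c105111_g1 was 208 times that of c108319_g2 at 0 psu, 15.6 times at 5 psu and 1.03 times at 15 psu. Unigene c108319_g2 therefore made up 0.478% of the pair's summed FPKM in freshwater, 6.03% in 5 psu water and 49.2% in 15 psu water. The sum itself was 583 in freshwater, 393 in 5 psu water and 771 in 15 psu water, which is 0.40 on the log2 scale for 15 psu over 0 psu and -0.57 for 5 psu over 0 psu, so both sums in saltwater stayed within 2-fold of freshwater.

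**Figure D1:**
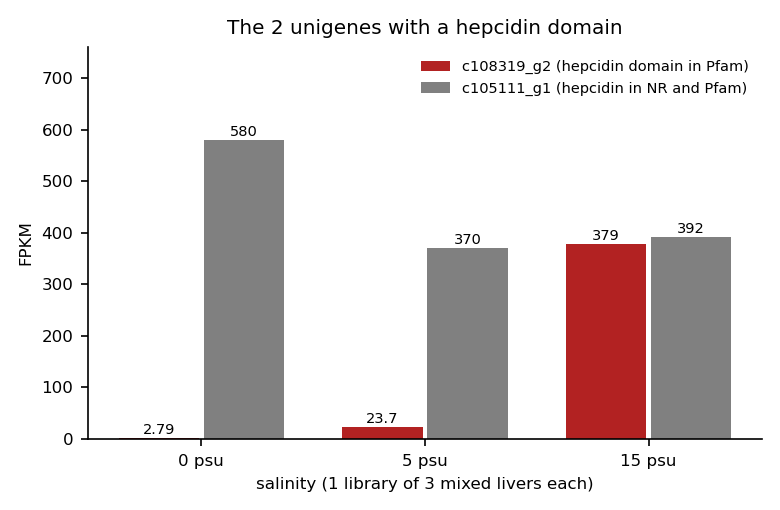
FPKM (vertical axis) of the 2 unigenes with a hepcidin domain at each salinity (horizontal axis), 1 library per bar and no error bars because there were no replicates. The bars of c108319_g2 stand at 2.79, 23.7 and 379 at 0, 5 and 15 psu, those of c105111_g1 at 580, 370 and 392, and the bars of both unigenes are of like height at 15 psu alone.

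The name of c108319_g2 rests on its Pfam domain. It had no KEGG name and no Swissprot match, and its best NR match was a Chelonia mydas entry titled tapasin-related protein, a name used for a relative of the peptide-loading protein tapasin of the class I antigen pathway. The other 8 unigenes with tapasin in the NR match were set beside it for that reason. The 7 of them that reached an FPKM of 1 had log2 fold changes of -1.01 to 2.39 for 15 psu over 0 psu. The group was chosen by the FPKM of c108319_g2, so its higher value of 7.03 says nothing about its name. RefSeq's gene table for the assembly CAS_Tse_1.0 of this species has 1 gene with the symbol HAMP, the gene symbol of hepcidin, and its neighbours there are USF2 and LOC117869568. Which of the 2 unigenes comes from that gene was not examined here, and where 2 unigenes are alike in sequence the quantification divides shared reads between them by estimate.

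Unigenes of like pattern were sought among the 4871 annotated unigenes outside the iron group with FPKM of at least 10 in every library, by the Euclidean distance between their log2 fold changes for 5 psu over 0 psu and 15 psu over 0 psu, over these 3 libraries. Unigene c108319_g2 itself, at 2.79 in freshwater, would not pass that filter, so unigenes as low in freshwater were not searched. The nearest to it, c122206_g3 of an uncharacterized protein, was at a distance of 3.45 with FPKM of 17.7 in freshwater, 167 in 5 psu water and 215 in 15 psu water. The second was c106996_g1 of serum amyloid A, a plasma protein that the vertebrate liver secretes in inflammation, at a distance of 3.55. Its FPKM was 39.6 in freshwater, 78.0 in 5 psu water and 706 in 15 psu water, and its log2 fold change was 4.15 for 15 psu over 0 psu. The next were a COQ10 homolog B unigene (distance 3.57), a phospholipase A2 inhibitor and Ly6/PLAUR domain protein (3.60) and a second uncharacterized protein (4.54), all with their highest FPKM at 15 psu. When the search was widened, after the data were seen, to 5661 turtle- or alligator-matched unigenes above 0 in every library and at 10 or more in 1, 14 lay nearer than that. The nearest was c109971_g1 of cadherin-related family member 3, at a distance of 1.19, with FPKM of 0.08 in freshwater, 0.66 in 5 psu water and 14.4 in 15 psu water. Next came c120471_g4 of an NYNRIN-like protein, at a distance of 1.66, with FPKM of 1.54 in freshwater, 20.5 in 5 psu water and 73.5 in 15 psu water.

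The main unigene of TFR2 and that of HJV, both regulators of hepcidin in mammals, were expressed in all 3 libraries and stayed within 2-fold. TFR2, the liver's sensor of iron-loaded transferrin in mammals, had FPKM of 205 in freshwater, 205 in 5 psu water and 251 in 15 psu water in its main unigene c112658_g1, with a log2 fold change of 0.29 for 15 psu over 0 psu. The second TFR2 unigene, c98752_g2, was listed at 0 in the 0 psu and 5 psu libraries and had an FPKM of 10.4 at 15 psu. Summed over both, TFR2 stood at 205, 205 and 261 at 0, 5 and 15 psu. HJV (c111275_g1), the bone morphogenetic protein co-receptor, had FPKM of 8.81 in freshwater, 10.02 in 5 psu water and 11.3 in 15 psu water, a log2 fold change of 0.36 for 15 psu over 0 psu.

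Of a wider list of 22 hepcidin regulators, with 1 unigene taken per gene, 21 were matched and all 21 reached an FPKM of 1. In 5 psu over 0 psu, 2 of 21 were 2-fold higher and 0 lower, in 15 psu over 0 psu 3 were higher and 0 lower, and in 15 psu over 5 psu 1 was higher and 0 lower. In the same 3 comparisons, 29.9%, 29.6% and 30.5% of all unigenes with a turtle or alligator NR match changed 2-fold in either direction. Those shares, here and beside the later lists, take in every such unigene that reached an FPKM of 1, most of them below 50. A list keeps 1 unigene per gene, that of highest mean FPKM among the preferred matches, so lists and shares were not chosen alike. At an FPKM of 50 or more the shares were 6.52%, 8.01% and 8.40%. The median log2 fold changes of the list were 0.10, 0.26 and 0.17 in that order, beside 0.08, 0.01 and -0.06 over all unigenes with a turtle or alligator NR match. The higher ones were BMP6, a bone morphogenetic protein that induces hepcidin in mammals, with FPKM of 0.74 in freshwater, 1.59 in 5 psu water and 2.04 in 15 psu water, which passed the filter through the saltwater libraries alone. HIF1A, the oxygen-regulated transcription factor, had FPKM of 16.8 in freshwater, 40.1 in 5 psu water and 34.3 in 15 psu water. SOCS3, a feedback inhibitor induced by STAT3, had FPKM of 10.6 in freshwater, 10.2 in 5 psu water and 24.0 in 15 psu water. These values are of 1 of 2 unigenes matched to BMP6, 1 of 6 to HIF1A and 1 of 2 to SOCS3. The others are not given here. ID1, a target gene of SMAD signalling, was just inside 2-fold, with FPKM of 21.9 in freshwater, 29.9 in 5 psu water and 43.3 in 15 psu water (log2 fold change 0.98 for 15 psu over 0 psu). SMAD6 and SMAD7, also on the list, differed less, with log2 fold changes of -0.19 and 0.27 for 15 psu over 0 psu. STAT3 itself had FPKM of 41.5, 40.8 and 40.7 at 0, 5 and 15 psu, and IL6R, the interleukin 6 receptor, 63.8, 62.9 and 75.2. TMPRSS6, a protease that cleaves hemojuvelin and lowers hepcidin in mammals, had FPKM of 17.9 in freshwater, 25.1 in 5 psu water and 18.6 in 15 psu water.

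Transferrin, as named by KEGG, was among the most abundant messages of the liver. Both TF unigenes were included for that KEGG name, because their NR matches did not hold the word transferrin. TF unigene c99501_g2 had an FPKM of 6625 in freshwater, 4504 in 5 psu water and 5198 in 15 psu water, ranks of 10, 15 and 14 among all unigenes. The second TF unigene, c99501_g1 of the same assembly cluster, had an FPKM of 2022 in freshwater, 1560 in 5 psu water and 1524 in 15 psu water. Both were highest in freshwater, with log2 fold changes of -0.56 and -0.37 for 5 psu over 0 psu and of -0.35 and -0.41 for 15 psu over 0 psu, c99501_g2 first. Their sum was 8647 in freshwater, 6064 in 5 psu water and 6722 in 15 psu water, and both saltwater libraries were within 2-fold of freshwater. Of 8 hepatocyte markers, 8 were found and none was at 0. In 5 psu over 0 psu 7 of them were lower and TTR was higher (FPKM of 160 against 116), and in 15 psu over 0 psu 7 were lower and SERPINC1 was equal, but only albumin and TAT were lower by 2-fold or more. The markers had a summed FPKM of 19838 in freshwater, 13509 in 5 psu water and 12911 in 15 psu water. Their part in the TF values was not tested, and in mixed liver RNA fewer cells of a type and less RNA per cell cannot be told apart. Without albumin (FPKM of 4846, 824 and 1268 at 0, 5 and 15 psu) the marker sum was 14991, 12685 and 11643. The unigenes nearest to c99501_g2 in pattern were those of interferon regulatory factor 6 (distance 0.0084), phenylalanine-4-hydroxylase (0.020) and the mitochondrial import subunit Tim8 B (0.026), followed by a pair of unigenes of 1 zinc finger protein name (0.034 and 0.040).

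The receptor for transferrin uptake, TFRC (c124582_g1), was low, with FPKM of 7.12 in freshwater, 5.55 in 5 psu water and 6.09 in 15 psu water. Melanotransferrin (MELTF), a membrane-anchored relative of transferrin, was matched by 5 unigenes that were mostly lower still. The highest, c123847_g4, had FPKM of 3.09 in freshwater, 3.32 in 5 psu water and 6.95 in 15 psu water, a log2 fold change of 1.14 for 15 psu over 0 psu. In c102593_g1 the FPKM was 0.41 in freshwater, 0.35 in 5 psu water and 4.95 in 15 psu water, a log2 fold change of 3.31 for 15 psu over 0 psu, and it passed the filter through the 15 psu library alone. The third, c123847_g5, stayed between 0.14 and 0.59, and the other two, c121446_g12 and c156934_g1, were listed at 0 in all 3 libraries. The summed FPKM of MELTF was 4.08 in freshwater, 3.81 in 5 psu water and 12.5 in 15 psu water.

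Ferritin messages were the most abundant of the group. The light chain FTL (c110613_g1) had an FPKM of 13257 in freshwater, 10904 in 5 psu water and 13312 in 15 psu water, ranks of 4, 3 and 2 among all unigenes. The heavy chain FTH1 (c98339_g1), which carries the iron-oxidizing site, had an FPKM of 8834 in freshwater, 7571 in 5 psu water and 8230 in 15 psu water, ranks of 7, 7 and 6. Both were lowest in 5 psu water, though FTH1 relative to beta-actin was lowest in 15 psu water, and the log2 fold changes for 5 psu over 0 psu were -0.28 for FTL and -0.22 for FTH1. In 15 psu over 0 psu the log2 fold changes were 0.01 for FTL, below 0 under each of the 3 rescalings tried, and -0.10 for FTH1. The ratio of FTL to FTH1 FPKM was 1.50 in freshwater, 1.44 in 5 psu water and 1.62 in 15 psu water, and this pair of unigenes held 2.24%, 1.91% and 2.24% of the summed FPKM of all unigenes at 0, 5 and 15 psu. Of the minor ferritin unigenes, c114355_g1 (FTL) had FPKM of 4.79, 5.18 and 5.14 at 0, 5 and 15 psu. The FTH1 unigene c116144_g3 had FPKM of 1.04 in freshwater, 0 in 5 psu water and 0.26 in 15 psu water, near the filter. The main FTL unigene was matched to an alligator ferritin titled light chain, oocyte isoform, and its KEGG field names both chains.

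The iron exporter SLC40A1 (c112301_g1), the target of hepcidin, had FPKM of 153 in freshwater, 164 in 5 psu water and 138 in 15 psu water. Its log2 fold change was 0.10 for 5 psu over 0 psu and -0.15 for 15 psu over 0 psu, so its message was nearly level. The FPKM of c108319_g2, whose name rests on its Pfam domain, was 136 times as high at 15 psu as at 0 psu. That of c105111_g1, named hepcidin by its NR match, was 392 at 15 psu against 580 at 0 psu. The pair summed to 771 against 583. In mammals hepcidin acts on the ferroportin protein, which was not measured, so these messages do not show whether it acted here. The other 2 SLC40A1 unigenes were below an FPKM of 1 throughout, c115576_g5 at 0.43 to 0.78 and c146797_g1 at 0. CP (c116646_g1) had FPKM of 823 in freshwater, 636 in 5 psu water and 812 in 15 psu water, log2 fold changes of -0.37 for 5 psu over 0 psu and -0.02 for 15 psu over 0 psu. The minor CP unigene c113360_g1 had FPKM of 1.13 in freshwater, 0.91 in 5 psu water and 2.55 in 15 psu water, and its log2 fold change of 1.11 for 15 psu over 0 psu adds little to the CP sum of 824, 637 and 815 at 0, 5 and 15 psu.

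The scavengers and the heme oxygenases were highest at 15 psu, each by less than 2-fold. HP (c105324_g1) had an FPKM of 1688 in freshwater, 1366 in 5 psu water and 2004 in 15 psu water, log2 fold changes of -0.31 for 5 psu over 0 psu, 0.25 for 15 psu over 0 psu and 0.55 for 15 psu over 5 psu. HPX (c119365_g1) had FPKM of 593 in freshwater, 576 in 5 psu water and 812 in 15 psu water, a log2 fold change of 0.45 for 15 psu over 0 psu. HMOX1 (c115924_g1), the inducible heme oxygenase, was higher at each step, with FPKM of 102 in freshwater, 132 in 5 psu water and 187 in 15 psu water. Its log2 fold change of 0.87 for 15 psu over 0 psu was the highest among the 12 unigenes of the group that reached an FPKM of 50 other than c108319_g2. HMOX2 (c110334_g1), the constitutive form, had FPKM of 67.0 in freshwater, 62.3 in 5 psu water and 87.8 in 15 psu water. The HP unigene carried haptoglobin in KEGG and Swissprot, while its NR match was titled dihydroorotate dehydrogenase, and another unigene of that enzyme, c115060_g1, had FPKM of only 18.6, 14.4 and 18.6 at 0, 5 and 15 psu. Nearest to HP in pattern were alcohol dehydrogenase class-3 (distance 0.013) and complement factor H (0.023), a plasma protein of the complement system with FPKM of 554 in freshwater, 444 in 5 psu water and 666 in 15 psu water. After an uncharacterized protein (0.025) followed proteasome subunit beta type-3 (0.026) and an alpha-1B-glycoprotein-like unigene (0.035).

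**Figure D2:**
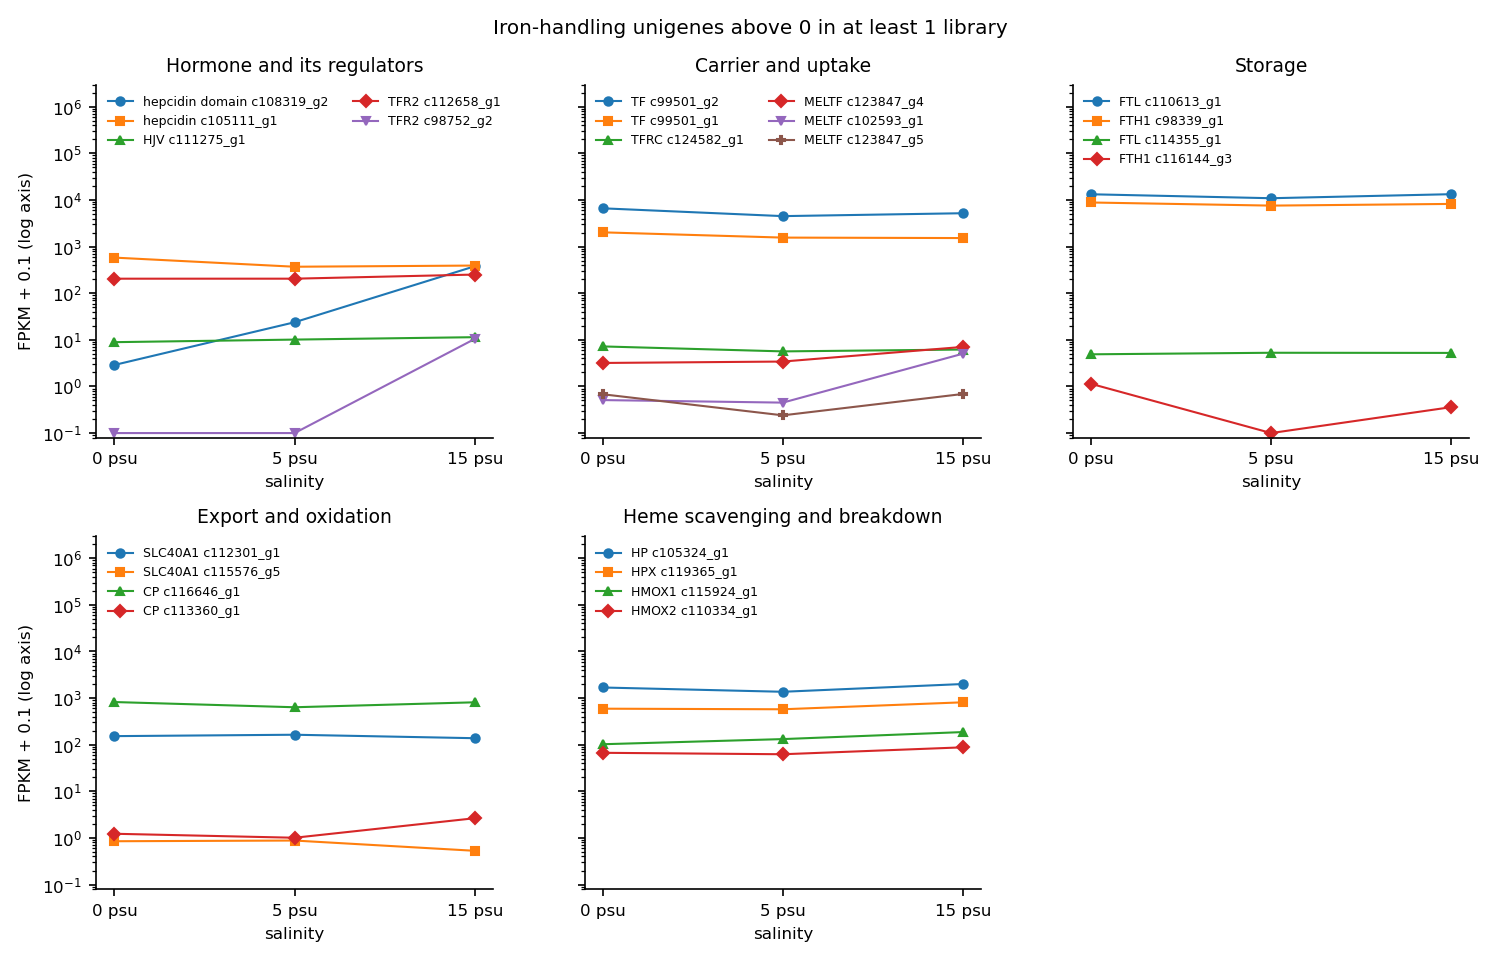
FPKM + 0.1 (vertical log axis) of the 23 iron-handling unigenes above 0 in at least 1 library, by salinity (horizontal axis), with 1 panel per role and 1 line per unigene, each point being 1 library. The line of c108319_g2 climbs to meet that of c105111_g1 at 15 psu, while the lines of TF, FTL, FTH1, CP, SLC40A1, HP, HPX, HMOX1 and HMOX2 at the top of their panels are nearly flat.

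Counted over the group, 19 of the 26 unigenes reached an FPKM of 1 in 5 psu over 0 psu and 2 of them changed 2-fold, c108319_g2 (higher) and c116144_g3 (lower, listed at 0 in 5 psu water). In the same comparison 29.9% of 21838 unigenes with a turtle or alligator NR match and 65.5% of all unigenes changed. In 15 psu over 0 psu, 21 unigenes of the group passed and 6 changed, beside 29.6% of 21072 turtle- or alligator-matched unigenes and 64.0% of all unigenes. Higher were c108319_g2, c98752_g2, c123847_g4, c102593_g1 and c113360_g1, and c116144_g3 was lower. In 15 psu over 5 psu, 20 passed and 5 changed, beside 30.5% of 21500 turtle- or alligator-matched unigenes and 65.5% of all unigenes, and these were the same 5 higher unigenes. Unigenes c98752_g2 and c102593_g1 passed through the 15 psu library alone and c116144_g3 through the freshwater library alone, which favours a difference without forcing one. In 15 psu over 5 psu, c113360_g1 also passed through the 15 psu library alone. The group's counts stayed below those shares of the background, and nothing is read from them.

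Among unigenes with FPKM of 50 or more in 1 of the pair, 0 of 12 unigenes of the group changed 2-fold in 5 psu over 0 psu, beside 6.52% of 1227 turtle- or alligator-matched unigenes. In 15 psu over 0 psu it was 1 of 13, c108319_g2, beside 8.01% of 1261, and in 15 psu over 5 psu again 1 of 13, c108319_g2, beside 8.40% of 1262. These counts are near the background shares, and c108319_g2, whose FPKM the choice of the group used, reached 50 through the 15 psu library alone, so nothing is read from them. The log2 fold changes of the other 12 lay between -0.65 and 0.37 for 5 psu over 0 psu, with 9 below 0, or 10 under each of the 3 rescalings tried, where TFR2 turned. For 15 psu over 0 psu they lay between -0.57 and 0.87, with 6 below 0, or 7 under each rescaling, where FTL turned. For 15 psu over 5 psu they lay between -0.25 and 0.55, with 10 above 0, or 11 under both rescalings to all unigenes and 8 relative to beta-actin. The shares of abundant background unigenes above and below 0 are not given here. TF and HP, whose FPKM the choice of the group also used, are among the 12, so nothing is read from these directions. The whole group of 26 held 3.55%, 2.90% and 3.48% of the summed FPKM of the libraries of 0, 5 and 15 psu.

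**Figure D3:**
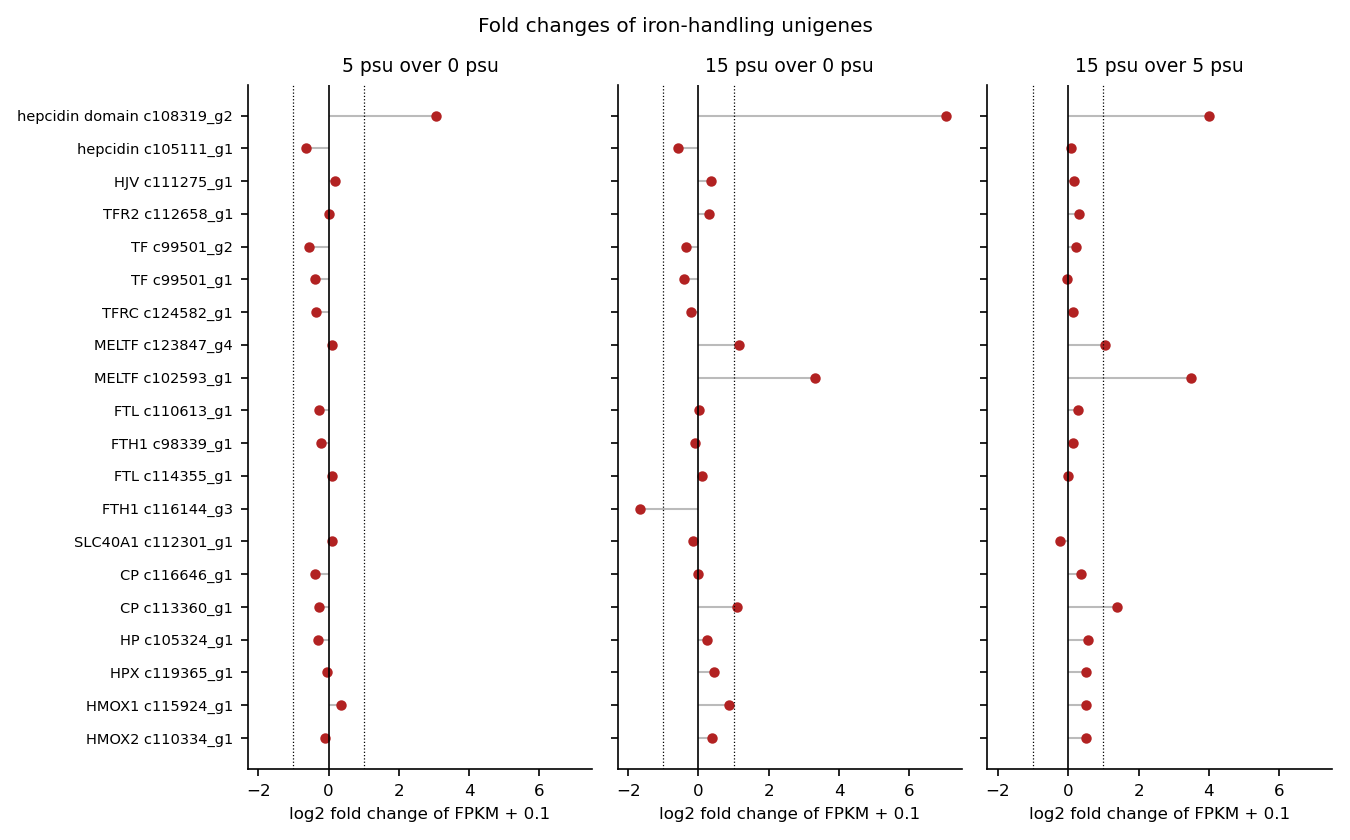
Log2 fold change of FPKM + 0.1 (horizontal axis) of each iron-handling unigene (rows) in the 3 comparisons (panels), 1 library against 1 library, for unigenes that reached an FPKM of 1 in the comparison with no library at 0, with dotted lines at 2-fold. The points of c108319_g2 stand at 3.04, 7.03 and 3.99 in the panels from left to right, while TF, FTL, HP and the other abundant unigenes lie inside the dotted lines in every panel.

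**Figure D4:**
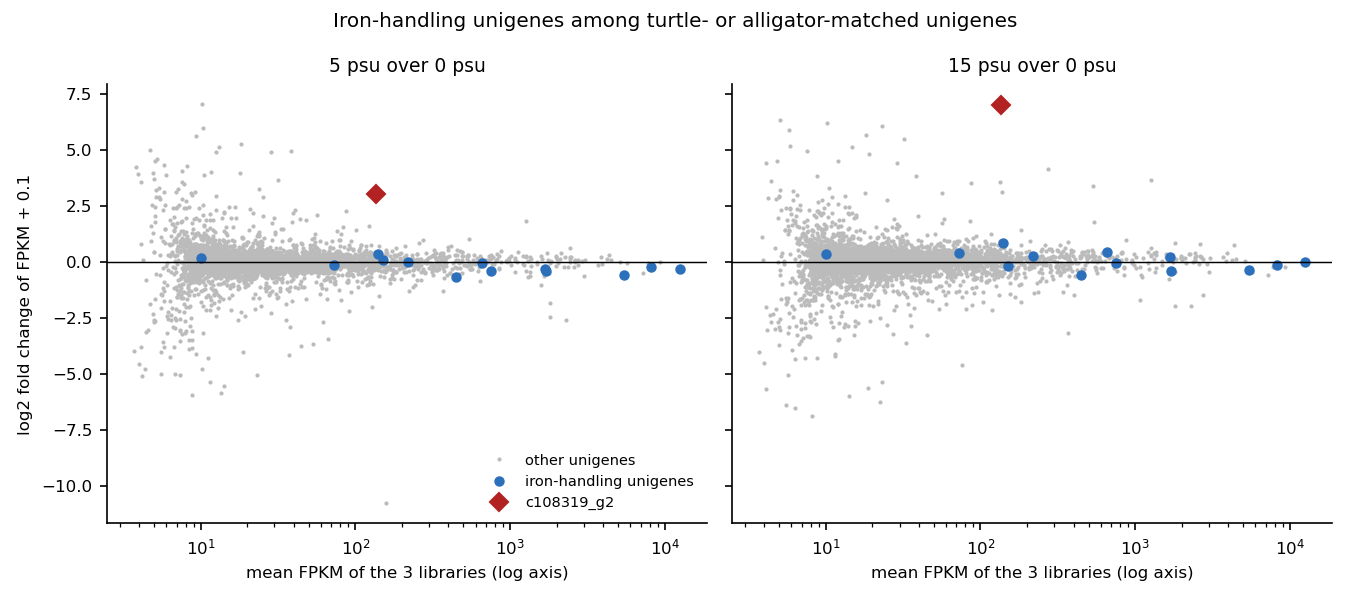
Log2 fold change of FPKM + 0.1 (vertical axis) against the mean FPKM of the 3 libraries (horizontal log axis) for the 5675 unigenes with a turtle or alligator NR match, FPKM above 0 in every library and at least 10 in 1, with 5 psu over 0 psu on the left and 15 psu over 0 psu on the right. The diamond of c108319_g2 is at 3.04 on the left and at 7.03 on the right, above all other points there with the pseudocount of 0.1. The circles of the other 13 iron-handling unigenes lie near 0.

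Most genes in the other lists of the iron pathways differed by less than 2-fold. Iron uptake, storage and export had 18 of 20 genes matched, of which 18 passed the filter in 5 psu over 0 psu, with 0 higher and 2 lower, beside 29.9% of turtle- or alligator-matched unigenes changed. These were SCARA5, a receptor that takes up ferritin, with FPKM of 1.50, 0.43 and 0.95 at 0, 5 and 15 psu, and hephaestin (HEPH), a copper oxidase like ceruloplasmin, with an FPKM of 15.6 at 0 psu and 0 in both saltwater libraries, and both passed the filter through the freshwater library alone. The values are of 1 of 3 unigenes matched to SCARA5 and 1 of 5 matched to HEPH, and the others are not given here. In 15 psu over 0 psu 1 of 18 was higher, MELTF, and 1 lower, HEPH, beside 29.6%. NCOA4, which delivers ferritin to be broken down, had FPKM of 44.7, 37.9 and 37.8 at 0, 5 and 15 psu, and SLC11A2, an importer of ferrous iron, 44.2, 34.7 and 42.2. ACO1 and IREB2, the iron regulatory proteins that bind ferritin and TFRC messages, had FPKM of 42.0 and 13.8 at 0 psu, 36.9 and 13.1 at 5 psu, and 34.0 and 10.8 at 15 psu.

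Heme scavenging and breakdown had 12 of 12 genes matched, with 1 higher and 1 lower in 5 psu over 0 psu and 0 of 12 changed in 15 psu over 0 psu, beside the same 29.9% and 29.6%. The higher one was BLVRA, which reduces the biliverdin left by heme oxygenase, with FPKM of 3.70 in freshwater, 8.55 in 5 psu water and 3.69 in 15 psu water. The lower one was CD163, the macrophage receptor for haptoglobin bound to hemoglobin in mammals, with FPKM of 36.4 in freshwater, 17.0 in 5 psu water and 30.2 in 15 psu water. The CD163 values are of 1 of 6 matched unigenes, and the others are not given here. In 5 psu over 0 psu, 7 of 8 macrophage markers were lower and TIMD4 was higher (FPKM of 34.1 against 31.0), with CD163 and MARCO lower by 2-fold or more. In 15 psu over 0 psu 5 were lower and 3 higher, and in 15 psu over 5 psu all 8 were higher, each by less than 2-fold. MARCO, in 1 of 3 matched unigenes, had FPKM of 2.05 in freshwater, 0.17 in 5 psu water and 0.21 in 15 psu water, and CSF1R 20.6, 13.2 and 19.7. The macrophage markers, of which C1QA, C1QB, C1QC and CD68 were the most abundant, had a summed FPKM of 1430 in freshwater, 1275 in 5 psu water and 1516 in 15 psu water, and erythrocyte markers, 3 of 6 found, 383, 515 and 307. All 3 erythrocyte markers were higher in 5 psu over 0 psu and lower in 15 psu over 5 psu. The part of either cell type in the HP, HPX, HMOX1 and CD163 values was not tested. Of the heme synthesis genes 9 of 10 were matched and of the iron-sulfur cluster genes 12 of 15, and in both lists 0 changed 2-fold in any of the 3 comparisons, beside 29.9%, 29.6% and 30.5% of turtle- or alligator-matched unigenes. The lists keep 1 unigene per gene and the shares take in every unigene, so no unusual steadiness is read from this. ALAS1, the first enzyme of heme synthesis in liver, had FPKM of 11.2 in freshwater, 8.64 in 5 psu water and 11.3 in 15 psu water.

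Of 17 acute phase proteins, the plasma proteins that the liver makes in altered amounts in inflammation, 14 were matched. In 5 psu over 0 psu 0 were higher and 1 lower, albumin, and in 15 psu over 0 psu 1 was higher, serum amyloid A, and 1 lower, albumin, beside 29.9% and 29.6% of turtle- or alligator-matched unigenes changed. In 5 psu over 0 psu serum amyloid A was only just inside 2-fold, with FPKM of 39.6 and 78.0 at 0 and 5 psu (log2 fold change 0.98). Serum amyloid A and c108319_g2 were thus both at their highest at 15 psu. So were complement C3, ORM and A2M of this list, with log2 fold changes of 0.39, 0.27 and 0.04 for 15 psu over 0 psu. The fibrinogen chains FGA, FGB and FGG had values of -0.35, -0.44 and -0.44 in that comparison, and SERPINA1 and AHSG -0.56 and -0.46. HP and HPX, kept on the heme list and not on this one, were also highest at 15 psu. The median log2 fold change of the list was -0.38 for 5 psu over 0 psu and -0.30 for 15 psu over 0 psu, beside 0.08 and 0.01 over turtle- or alligator-matched unigenes. The list joins proteins whose amounts rise and proteins whose amounts fall in inflammation, so its median is no measure of an acute phase response.

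**Figure D5:**
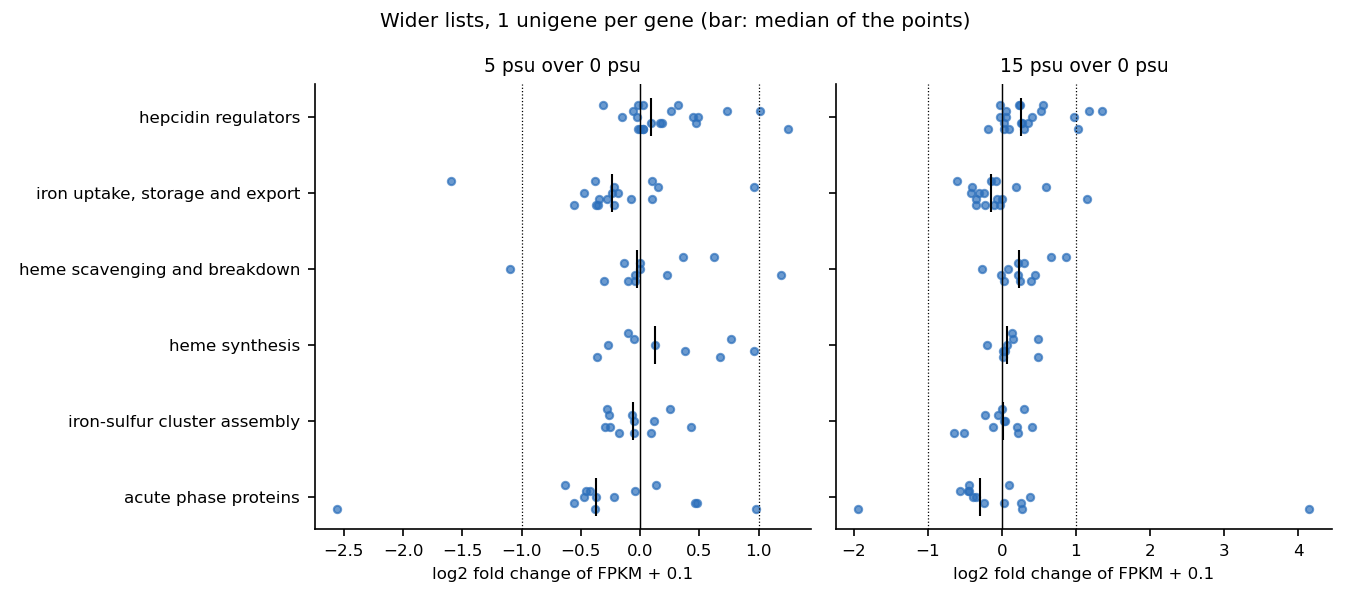
Log2 fold change of FPKM + 0.1 (horizontal axis) of the genes of 6 lists (rows), 1 unigene per gene and 1 library against 1 library, for 5 psu over 0 psu on the left and 15 psu over 0 psu on the right. Vertical bars are the medians of the points, dotted lines mark 2-fold, HEPH is not drawn because it was at 0 in saltwater, and serum amyloid A stands apart at 4.15 on the right.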

How the data were processed

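RNA-seq was made of liver from 3 groups of turtles, 1 mixed library per salinity. The authors deposited FPKM values to 2 decimals, with annotations. Reads had been trimmed (SeqPrep, Sickle), assembled by Trinity, and quantified per unigene by RSEM with Bowtie, both named without versions in the submitters' processing notes. Scaling between libraries is not given in the sources used here, and read counts per unigene were not used here, so no interval is given. No sequences were used here.

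Calculations used Python 3.11.15, numpy 2.4.6 and pandas 2.3.3, and drawn with matplotlib 3.10.9. A pseudocount of 0.1, a minimum FPKM of 1 in either library and the study's 2-fold criterion were used, and no fold change was taken for single unigenes listed at 0, which do enter counts and medians. The median log2 ratio over 25794 unigenes that reached an FPKM of 1 in every library was 0.08 (5 psu over 0 psu), 0.02 (15 psu over 0 psu) and -0.05 (15 psu over 5 psu). Members and gene lists were chosen with earlier results of these data known. Every member was accounted for, those reaching an FPKM of 5 by the value of each library, and the unigene of highest mean represents a gene. Where several unigenes matched a gene of the wider lists, one named alike by KEGG and NR was preferred, a choice made after the matches were read. RefSeq's table of CAS_Tse_1.0 served only for names and neighbours. Counting steps were tested on simulated data. The alternatives were other pseudocounts and filters, 3 rescalings and other member rules.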

Additional observations from a re-analysis of the deposited data

Results flagged for a closer look

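Another 14 unigenes carry a name of this group but match a mammal best, and they enter no comparison above. Of these, 3 had an FPKM of at least 1 in a saltwater library while listed at 0 in the 0 psu library. The TF unigene c164327_g1 had an FPKM of 4.78 at 5 psu and 0 at 15 psu, the HMOX2 unigene c178948_g1 had 3.74 at 5 psu and 0 at 15 psu, and the HP unigene c168390_g1 had 0.67 at 5 psu and 1.74 at 15 psu, all with the rat as the species of the best match. This flag was 1-sided. Unigenes above 0 in the 0 psu library alone, such as the TF unigene c142744_g1 at 39.2, could not meet it and are given below.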

How the results depend on the processing

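Each salinity has 1 library, so no library could be left out, and no paired analysis was possible because each library mixed different turtles. The log2 fold change of c108319_g2 lay between 2.71 and 3.08 for 5 psu over 0 psu, 6.65 and 7.08 for 15 psu over 0 psu, and 3.80 and 4.06 for 15 psu over 5 psu under all pseudocounts and rescalings tried. Those of TF (c99501_g2) lay between -0.64 and -0.56, -0.57 and -0.35, and 0.02 and 0.27 in the same order of comparisons. The sum of both TF unigenes gave -0.51 for 5 psu over 0 psu. The log2 fold changes of HP lay between -0.39 and -0.305, 0.03 and 0.25, and 0.36 and 0.62, with the lowest 15 psu value relative to beta-actin. The group's medians kept their sign and stayed within 2-fold. The counts of changed unigenes moved more. They were 2 of 19, 6 of 21 and 5 of 20 as reported. With FPKM of at least 5 they were 1 of 16, 3 of 18 and 3 of 18. With the highest unigene per gene name they were 1, 2 and 2 of 15. With a pseudocount of 1 they were 3 for 15 psu over 0 psu and 3 for 15 psu over 5 psu. With any species of the NR match they were 7 of 26 and 11 of 28 for 5 and 15 psu over 0 psu. With KEGG names TF and HP of any species added they were 7 of 24 and 11 of 26. Beside these stand 29.9% and 29.6% of turtle- or alligator-matched unigenes and 65.5% and 64.0% of all unigenes. The added unigenes match a mammal best, and several were listed at 0 in 1 library of the pair, so nothing is read from these counts. Leaving out TF and HP, or adding the pyruvate dehydrogenase kinase unigene, both chosen after the data were seen, kept each count within 1.5 times of that reported. The nearest unigene to c108319_g2 was at a distance of 3.45 as reported and of 1.19 in the wider search, also chosen after the data were seen, which admits unigenes low in freshwater.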

Other observations

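Among the 14 mammal-matched unigenes, 4 were above 0 in the 0 psu library alone, all matched to the rabbit. The TF unigene c142744_g1 had an FPKM of 39.2 and the HP unigene c129467_g1 one of 14.2 there, and both were listed at 0 at 5 and 15 psu. A further 4 were above 0 at 5 psu alone, 2 were above 0 in every library, 1 in both saltwater libraries and 3 in none. Their summed FPKM was 62.3 in freshwater, 13.5 in 5 psu water and 5.31 in 15 psu water.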
